A study of Mus musculus with 6 samples.

Results

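The genes of polyamine synthesis and its antizyme control were examined in juvenile mouse testes that lacked or carried a working Nxf2 gene. Members were the probe sets annotated to 1 gene symbol out of 10 listed genes (Oaz1, Oaz2, Oaz3, Odc1, Azin1, Azin2, Sat1, Amd1, Srm and Sms). The rule found 21 probe sets for 8 of the 10 genes, out of 45037 probe sets in all. No probe set carrying Amd1 alone or Sms alone was found, so both genes are not analysed here. The study compared whole testes of 3 Nxf2 knockout (KO) and 3 wild-type (WT) samples at postnatal day 21, when testes of both genotypes weighed about the same per the series' design text. Total RNA was amplified with biotinylated nucleotides and hybridised to Affymetrix arrays of 1 colour, each sample to its own array. Strain, the deleted part of Nxf2 and the number of animals per sample are not stated in those labels. The p-values therefore cover no more than the spread among these 6 samples, which may be technical.

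Polyamines (putrescine, spermidine and spermine) are small cations that bind nucleic acids and are needed for growth and translation. Ornithine decarboxylase, encoded by Odc1, makes putrescine and is the first step of the pathway. Antizymes bind the enzyme, and some of them send it to the proteasome. The synthesis of antizymes needs a ribosomal frameshift that polyamines promote. Antizyme inhibitors are inactive relatives of the decarboxylase that hold antizyme away from it. Oaz1 and Oaz2 encode antizymes found in most tissues, whereas Oaz3 encodes an antizyme of haploid male germ cells.

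The deposited values are MAS5 signals, linear brightness values for each probe set on each array. Median signals were between 37.1 and 40.9 on the 6 arrays, and Spearman correlations between arrays, taken over the tested probe sets, ranged from 0.985 to 0.992 among KO arrays, 0.980 to 0.991 among WT arrays and 0.965 to 0.983 between genotypes. Nxf2 itself, an X-linked germ cell member of the mRNA export receptor family, had signals of 116.0, 106.2 and 130.8 in KO testes against 374.3, 340.4 and 385.9 in WT testes. It was 3-fold lower in KO (log2 fold change -1.59, limma adjusted p = 0.000488), and no label says whether its probes lie in the deleted part. Fold changes below are KO minus WT on the log2(signal + 7) scale, which understates changes of dim probe sets. A probe set was tested if its mean signal over the 6 arrays reached 20.5, called the dim limit here, and passed if limma's p, adjusted by Benjamini-Hochberg across every tested probe set, was under 0.05. Testis markers were present in both genotypes: summed signals of 13 pachytene spermatocyte genes were 9019 to 10488 in KO and 11314 to 11670 in WT, and those of 13 Sertoli cell genes 7506 to 8050 in KO and 6643 to 6961 in WT.

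Oaz3, the germ cell antizyme, was the only member that passed the test. Of 17 member probe sets tested, 2 fell in KO, both of Oaz3, and none rose (limma). Over all 27022 tested probe sets 7.49% passed, 5.23% as lower and 2.26% as higher in KO. At an unadjusted p under 0.05 the members had 3 probe sets lower and 2 higher in KO, and over all tested probe sets 13% were lower and 15.5% higher at that threshold. The other 4 of the 21 probe sets, 2 of Oaz3 and 2 of Azin2, were below the dim limit and were not tested.

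The brightest Oaz3 probe set, 1437010_a_at, had signals of 201.0, 249.4 and 214.8 in KO testes against 314.9, 284.9 and 353.8 in WT testes. Each KO array was below each WT array. The means were 221.8 ± 24.9 in KO and 317.9 ± 34.5 in WT (SD, n = 3 each), a 1.42-fold fall (log2 fold change -0.51 ± 0.107 SE, limma adjusted p = 0.0232). The suffix _a_at marks probe sets whose probes match several transcripts of 1 gene.

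A larger fall was read by the Oaz3 probe set 1437011_x_at, where the suffix _x_at marks probes that can also match other sequences. Its signals were 49.2, 51.7 and 52.1 in KO testes against 129.4, 79 and 156.8 in WT testes. The KO arrays were close together, whereas the WT arrays were spread, with WT replicate 2 nearest to KO. This probe set fell 2.14-fold (log2 fold change -1.10 ± 0.205 SE, limma adjusted p = 0.0152).

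The remaining Oaz3 probe sets gave smaller differences. For 1429341_at the signals were 89.1, 99.1 and 75.7 in KO against 87.5, 106.7 and 106.4 in WT, with a log2 fold change of -0.18 (95% interval -0.47 to 0.12, limma adjusted p = 0.406). For 1453115_at they were 80.1, 79.3 and 51.6 in KO against 94.4, 99.1 and 65.7 in WT, with a log2 fold change of -0.28 (95% interval -0.71 to 0.15, limma adjusted p = 0.372). The groups overlapped in both. The dim probe set 1432571_at read 17.3, 19.4 and 15.3 in KO against 23.3, 22.3 and 22.9 in WT, without overlap but around the dim limit, and 1454279_at stayed at 5.27 or less on every array. All 4 tested Oaz3 probe sets had lower means in KO as deposited, after quantile normalization and after median centring, and 1429341_at turned to 0.04 with array weights.

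The 2 Oaz3 probe sets that passed differed in the size of their fall. The log2 difference of 1437011_x_at minus 1437010_a_at within an array was -1.89, -2.13 and -1.91 in KO and -1.24, -1.76 and -1.14 in WT, and only its change between genotypes is read here. This comparison was chosen after its values were seen. The difference changed by -0.59 (KO minus WT), with no overlap (exact permutation test, two-sided, p = 0.10, the smallest p that 3 against 3 arrays allow). With the median signal as pseudocount it was -0.35 (exact permutation p = 0.20). Across the 6 arrays 1437011_x_at had a Pearson correlation of 0.942 with 1437010_a_at, against 0.611 for 1429341_at and 0.293 for 1453115_at. These are descriptions over arrays that include the genotype difference.

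The Oaz3 calls depended on single arrays, while the log2 fold change stayed between -0.59 and -0.43 for 1437010_a_at and between -1.37 and -0.90 for 1437011_x_at with each array left out in turn. The call of 1437010_a_at was lost without WT replicate 1 (limma adjusted p = 0.1), KO replicate 1 (0.0602), WT replicate 3 (0.0602) or KO replicate 3 (0.0571), and that of 1437011_x_at without WT replicate 1 (0.0817). Both calls were also lost, at the same fold changes, without the intensity trend of the fit (adjusted p = 0.0648 for 1437010_a_at and 0.053 for 1437011_x_at), and that of 1437010_a_at without the dim filter (0.0524).

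**Figure D1:**
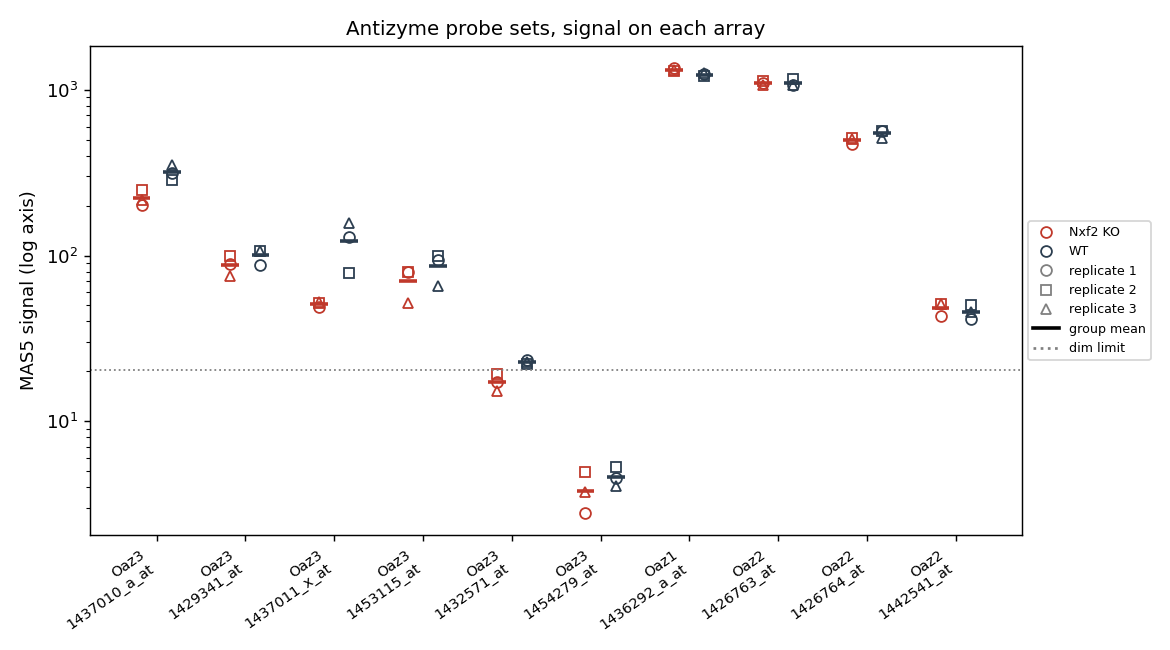
MAS5 signal (log axis) of every Oaz3, Oaz1 and Oaz2 probe set on each array, Nxf2 KO left of WT, with bars at the group means and a dotted line at the dim limit of 20.5. For Oaz3 1437010_a_at the KO arrays run up to 249.4 and the WT arrays start at 284.9, while the Oaz1 and Oaz2 groups are close together.

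The ubiquitous antizymes Oaz1 and Oaz2 did not pass the test in any of their 4 probe sets. Oaz1 had signals of 1350, 1297 and 1309 in KO testes against 1243, 1210 and 1255 in WT testes, read by 1436292_a_at. The KO arrays were all higher, by a log2 fold change of 0.09 (95% interval 0.00 to 0.18) that did not pass (limma adjusted p = 0.162). The brightest Oaz2 probe set, 1426763_at, had signals of 1106, 1136 and 1062 in KO against 1070, 1168 and 1067 in WT. Its groups overlapped, with an interval of the log2 fold change of -0.11 to 0.11 (limma adjusted p = 0.995). A second Oaz2 probe set, 1426764_at, read 472.2, 515.0 and 506.6 in KO against 561.8, 567.8 and 514.2 in WT (log2 fold change -0.14, limma adjusted p = 0.205). The dimmer 1442541_at read 43 to 50.9 in KO and 41.2 to 50.3 in WT.

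Oaz3 was also set against each ubiquitous antizyme within each array. The log2 difference of Oaz3 minus Oaz1 was -2.71, -2.35 and -2.57 in KO and -1.96, -2.06 and -1.81 in WT. Its change was -0.60, each KO array being below each WT array (exact permutation test, two-sided, p = 0.10, the smallest possible). Against Oaz2 the difference was -2.42, -2.16 and -2.27 in KO and -1.74, -2.01 and -1.57 in WT. That change was -0.51, again without overlap (exact permutation p = 0.10). Such a difference is free of a scaling factor common to an array, and its absolute size carries no meaning because the probe sets differ. The 250 bases before the start of Oaz1 are printed as the promoter of the antizyme to which Oaz3 was compared, from RefSeq on GRCm38.p6 (chr10:80826406-80826655, + strand), with the CCAAT box in capitals.
Oaz1: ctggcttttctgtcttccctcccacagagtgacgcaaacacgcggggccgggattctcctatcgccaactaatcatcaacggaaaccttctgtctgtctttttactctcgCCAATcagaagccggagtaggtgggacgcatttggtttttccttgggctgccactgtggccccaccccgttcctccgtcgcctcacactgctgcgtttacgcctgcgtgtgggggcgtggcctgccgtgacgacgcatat

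Most genes listed as spermatid markers were, like Oaz3, lower in KO. All 14 measured round spermatid markers fell in KO, and their summed signal was 3457, 3316 and 3262 in KO testes against 5065, 4634 and 5177 in WT testes. Of the list named for elongating spermatids 9 of 13 tested genes fell, with summed signals of 608.9, 618.1 and 709.7 in KO against 1827, 1137 and 2270 in WT. The 4 that did not pass were Gapdhs (log2 fold change -1.25), Tnp1 (-0.47), Tnp2 (0.02) and Prm1 (0.03). Of these, Tnp1, Tnp2 and Prm1 were read near the dim limit, with means of 17.7, 29.2 and 28.9 in KO and 29, 28.5 and 28.2 in WT. Prm2, a protamine gene, was below the dim limit on every array. For these dim genes little can be read at this age. The name of the list is only a label, and whether elongating spermatids were present in either genotype was not tested. Median log2 fold changes were -0.91 for round and -1.44 for elongating spermatid markers, against 0.037 over all tested probe sets. Among pachytene spermatocyte markers 6 of 13 fell, with a median of -0.31. Over all genes tested by their brightest probe set, 7.37% passed as lower in KO. The lists were chosen with earlier results of these data known, and several of these genes were known from them to be lower in KO. The counts are therefore descriptions and not independent evidence. In whole testis, fewer cells of a type and less RNA per cell cannot be told apart, and the part of the spermatid share in the Oaz3 fall was not tested.

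WT replicate 2 was the WT array with the lowest Oaz3 signal in both called probe sets, and also the one with the lowest spermatid marker sums. The other tested Oaz3 probe sets went the other way. WT replicate 2 had their highest WT signal, 106.7 for 1429341_at and 99.1 for 1453115_at. Set against the WT mean, 1437011_x_at was at -0.53 in WT replicate 2, 0.13 in WT replicate 1 and 0.40 in WT replicate 3 on the log2 scale. The elongating marker sum was at -0.56, 0.12 and 0.44 in the same arrays. KO arrays were between -1.15 and -1.07 for this probe set and between -1.46 and -1.24 for the elongating marker sum. KO replicate 2 had the highest 1437010_a_at value of the KO arrays, -0.34, but was not the highest in either spermatid list.

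**Figure D2:**
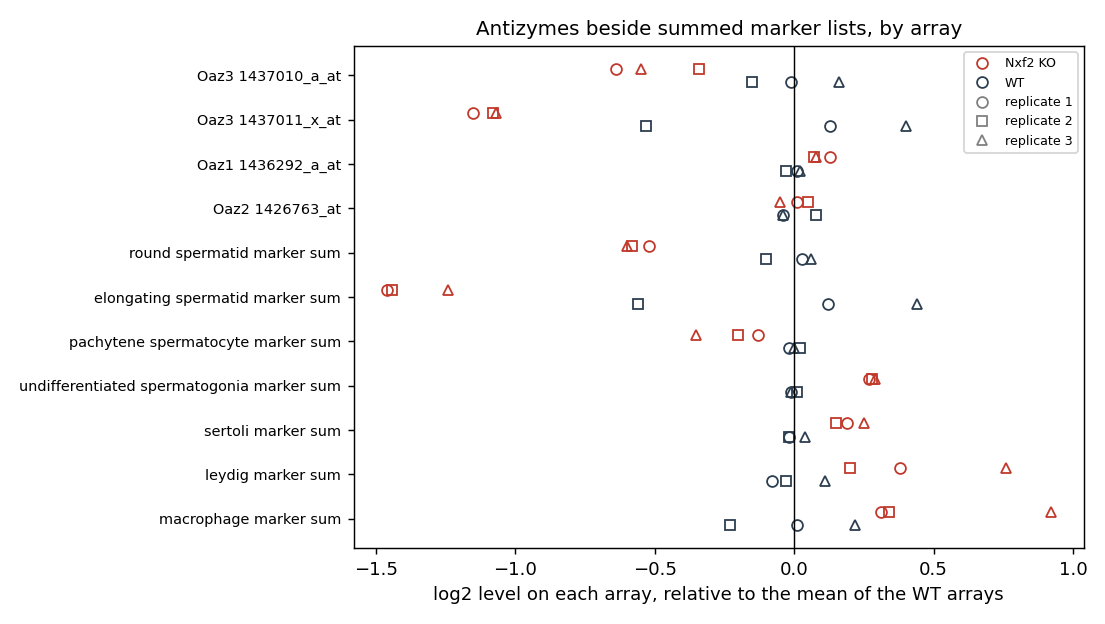
Log2 level on each array minus the WT mean (horizontal axis), for both called Oaz3 probe sets, the brightest Oaz1 and Oaz2 probe sets and the summed signals of 7 marker lists, Nxf2 KO points above WT points. Oaz3 and the spermatid sums are lower in KO on every array, Oaz2 overlaps, and the spermatogonia, Sertoli, Leydig and macrophage sums are higher in KO.

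By the rule for genes most like Oaz3, the 5 genes with the highest Pearson correlation to 1437010_a_at over the 6 arrays were Lyrm7 (0.994), Ttc21a (0.994), Vps52 (0.991), Strada (0.991) and Rps6ka6 (0.991). With 6 points and a genotype difference shared by many genes, these values are descriptions. Of the 5, Lyrm7 fell in KO (58 ± 10.5 in KO and 92.3 ± 10.6 in WT, SD, n = 3 each, log2 fold change -0.62, limma adjusted p = 0.0351). The other 4 did not pass, from Ttc21a at a log2 fold change of -0.48 to Rps6ka6 at -0.09. Each of these 4 had every KO array below every WT array, as did 14.8% of all tested probe sets. Choosing genes by correlation with a probe set that separates the genotypes favours such a result, so nothing is read from it.

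Odc1, the target of the antizymes, did not pass in any of its 3 probe sets. Its brightest, 1437711_x_at, had signals of 1111, 1029 and 924.7 in KO testes against 1052, 1022 and 1146 in WT testes (log2 fold change -0.07, 95% interval -0.23 to 0.08, limma adjusted p = 0.523). The groups overlapped, as they did in 1438761_a_at, which read 823.1, 728.4 and 738.9 in KO against 768.6, 806.2 and 844.9 in WT (log2 fold change -0.08, limma adjusted p = 0.426). The dimmest, 1427364_a_at, read 199.9, 197.6 and 210.4 in KO against 242.7, 216.6 and 264.5 in WT. Here every KO array was below every WT array, at a log2 fold change of -0.24 (95% interval -0.45 to -0.03) that did not pass (limma adjusted p = 0.132). All 3 Odc1 probe sets had lower means in KO.

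The antizyme inhibitor genes showed no difference beyond their spread. Azin1 had signals of 569.6, 563.2 and 527.2 in KO testes against 572.3, 568.7 and 542.6 in WT testes (1422702_at, log2 fold change -0.02, 95% interval -0.15 to 0.11). A second Azin1 probe set, 1450714_at, read 371.1 to 382.5 in KO and 354.7 to 410.5 in WT (log2 fold change -0.01, 95% interval -0.17 to 0.16). The groups overlapped in all 3 Azin1 probe sets, the dim 1430984_at among them, with adjusted p values of 0.846, 0.949 and 0.894 by limma. Azin2, known from brain and testis, was read near or below the dim limit. Its brightest probe set, 1444585_at, had signals of 24.6, 22.2 and 25.6 in KO against 29.9, 21.8 and 18.3 in WT (limma adjusted p = 0.856). At such signals the interval, -0.32 to 0.43 on the log2 scale, allows a change in either direction.

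Srm and Sat1 had higher means in KO without passing. Srm, encoding spermidine synthase, which turns putrescine into spermidine, had signals of 233.1, 203.0 and 266.7 in KO testes against 206.3, 177.6 and 206.2 in WT testes. The groups overlapped (log2 fold change 0.24, 95% interval -0.01 to 0.49, limma adjusted p = 0.194). Sat1 encodes the acetyltransferase that marks spermidine and spermine for export or breakdown. Its signals were 426.9, 438.5 and 566.7 in KO against 389.2, 391.0 and 397.3 in WT. Every KO array was higher, and KO replicate 3 stood apart (log2 fold change 0.27, 95% interval 0.04 to 0.49, limma adjusted p = 0.122). Without KO replicate 3 the log2 fold change of Sat1 was 0.14 and that of Srm 0.14. In the same array the summed signal of 11 macrophage markers was 3416, against 2237 and 2288 in the other KO arrays and 1539 to 2110 in WT. The summed signal of 7 Leydig cell markers was 3865 there, against 2623 and 2984 in the other KO arrays and 2162 to 2474 in WT. None of the 11 macrophage markers passed by limma, 5 of them had an unadjusted p under 0.05, and none was below the dim limit on every array. Of the 7 Leydig cell markers 2 rose, Star (limma adjusted p = 0.0271) and Scarb1 (0.0301), and 5 had an unadjusted p under 0.05. Over all genes tested by their brightest probe set, 2.98% passed as higher in KO and 18.5% were higher at an unadjusted p under 0.05. The part of these cell types in the Sat1 and Srm values was not tested.

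**Figure D3:**
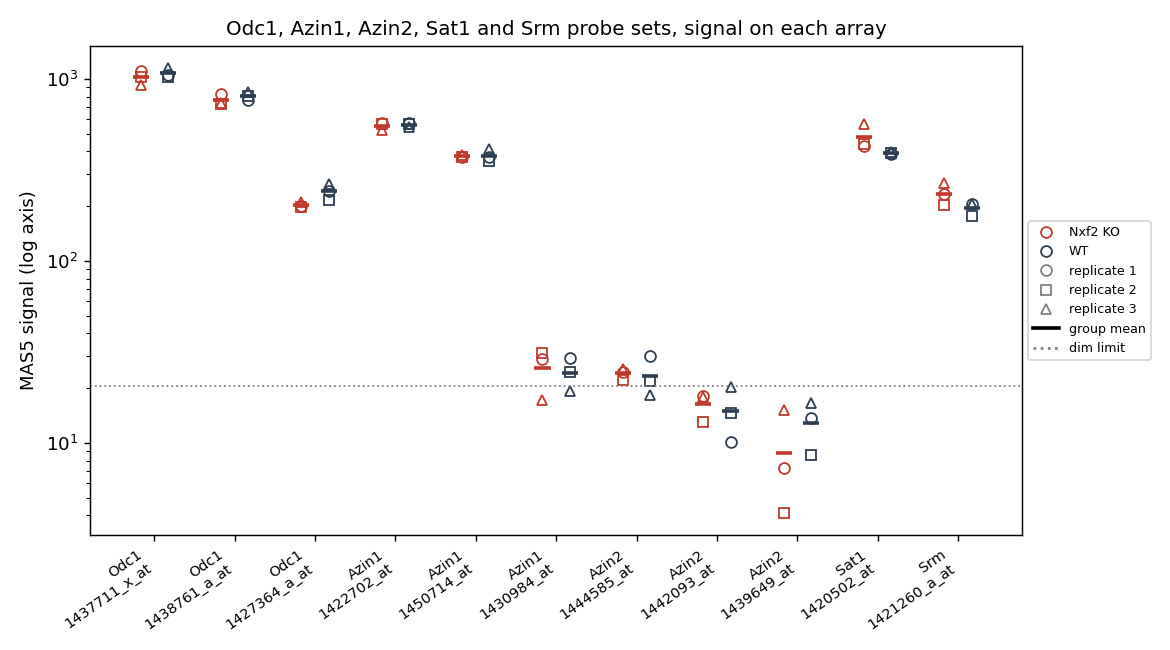
MAS5 signal (log axis) of every Odc1, Azin1, Azin2, Sat1 and Srm probe set on each array, Nxf2 KO left of WT, with bars at the group means and a dotted line at the dim limit of 20.5. Sat1 is higher in KO with 566.7 in KO replicate 3, Odc1 1427364_a_at is lower in KO, and the other groups overlap.

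In 5 of the 17 tested member probe sets the KO and WT arrays did not overlap. These were both called Oaz3 probe sets and Odc1 1427364_a_at on the lower side, and Oaz1 and Sat1 on the higher side. Over all tested probe sets 33.9% did not overlap, so the members' share was near the background. Their median log2 fold change was -0.021, against 0.037 over all tested probe sets.

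**Figure D4:**
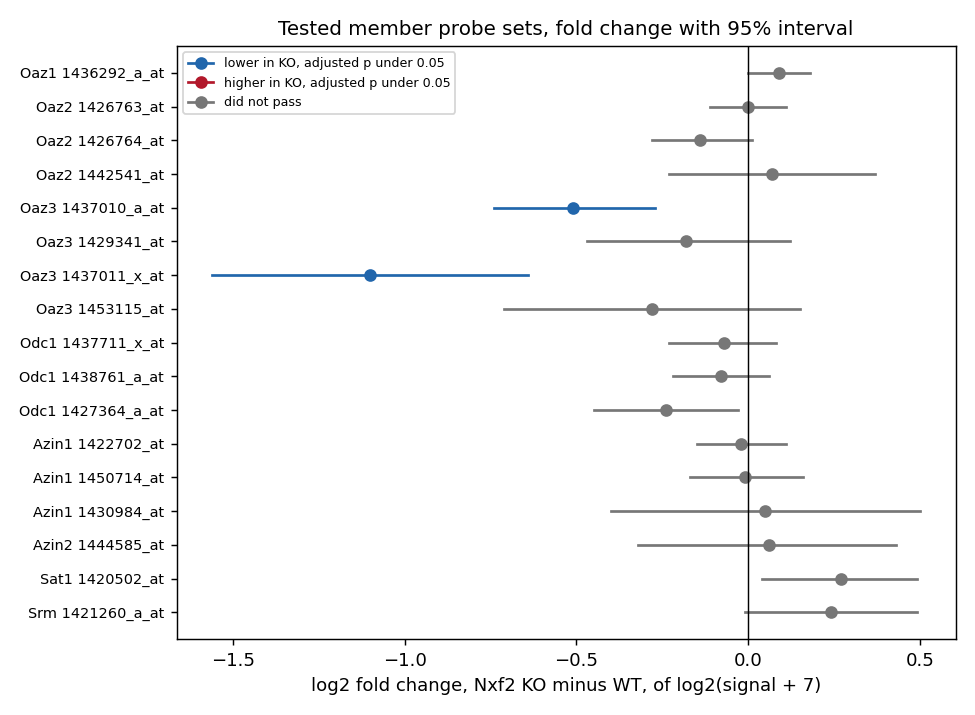
Log2 fold change, Nxf2 KO minus WT, with its 95% interval (horizontal axis) for the 17 tested member probe sets. Oaz3 1437011_x_at at -1.10 and Oaz3 1437010_a_at at -0.51 passed the test as lower in KO, and the other 15 did not pass.

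Of the wider polyamine pathway, 34 genes of ornithine supply, methyl donor supply and salvage, breakdown, transport and eIF5A hypusination were listed. Among the 23 that were tested by their brightest probe set, 4 rose in KO, none fell and 19 did not pass (limma), and at an unadjusted p under 0.05 there were 1 lower and 11 higher. Over all 12971 genes tested in this way 10.3% passed, 2.98% as higher and 7.37% as lower in KO, and 16.4% were lower and 18.5% higher at an unadjusted p under 0.05. Means were higher in KO for 17 of the 23 genes as deposited, 18 after quantile normalization and 16 after median centring. As deposited, 7375 of all 12971 genes had higher means in KO. The list had a median log2 fold change of 0.15, against 0.036 over all genes. Groups did not overlap in 11 genes that were higher and 1 that was lower in KO, against 21.5% higher and 18.3% lower (39.8% in either direction) of all genes.

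Of the 4 genes that rose, Smox and Sat2 had the largest log2 fold changes. Smox encodes spermine oxidase, which turns spermine back into spermidine. Its signals were 213.5, 191.3 and 222.8 in KO testes against 152.0, 151.3 and 158.1 in WT testes, a 1.34-fold rise (log2 fold change 0.42 ± 0.0928 SE, limma adjusted p = 0.0262). Sat2, a relative of Sat1 whose product acetylates thialysine, had signals of 605.9, 535.1 and 675.8 in KO against 470.4, 441.6 and 435.6 in WT. It also rose 1.34-fold (log2 fold change 0.42 ± 0.0843 SE, limma adjusted p = 0.0198). In neither gene did the groups overlap. The Smox call was kept without KO replicate 2 but lost without any other single array, most without WT replicate 1 (limma adjusted p = 0.119), and the Sat2 call was lost without WT replicate 1 (0.0727), WT replicate 3 (0.0533) or the intensity trend (0.0698). The second Smox probe set had a log2 fold change of 0.37 and did not pass (limma adjusted p = 0.137).

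Oat and Mat2b rose by less. Oat encodes ornithine aminotransferase, which links ornithine to glutamate and proline, and had signals of 551.8, 574.9 and 630.5 in KO against 486.4, 488.6 and 499.0 in WT (1.19-fold, limma adjusted p = 0.047). Mat2b encodes the regulatory subunit of methionine adenosyltransferase and had signals of 521.8, 472.8 and 480.9 in KO against 408.9, 404.4 and 419.8 in WT (1.19-fold, limma adjusted p = 0.0433). All KO arrays were above all WT arrays in both. The Oat call was kept without KO replicate 1 and lost without any other single array (limma adjusted p up to 0.162), and the Mat2b call was lost without each array in turn (up to 0.156). Both were also lost after median centring (0.123 for Oat and 0.166 for Mat2b), without the dim filter (0.0815 for Oat and 0.0703 for Mat2b) and without the intensity trend (0.111 for Oat and 0.0969 for Mat2b).

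Among the 19 that did not pass, Slc7a2, a carrier of cationic amino acids, had the lowest p (log2 fold change 0.34, limma adjusted p = 0.0608). Mtap, which salvages the methylthioadenosine left by spermidine and spermine synthesis, was at 0.30 (0.0652), and 1 of its 4 probe sets, 1424426_at, rose (0.39, limma adjusted p = 0.0491). Atp13a4, a P5-type ATPase, was at 0.35 (0.086), and Slc3a2, the heavy chain of amino acid transporters, at 0.17 (0.104). Sertoli cell and undifferentiated spermatogonial markers were also higher in KO by their summed signals, beside these genes. Of the tested markers, 4 of 12 for Sertoli cells and 5 of 8 for spermatogonia rose. Among the spermatogonial markers that did not pass, Gfra1 and Id4 had lower means in KO (log2 fold change -0.15 each) and Etv5 a higher one (0.35). Over all genes tested by their brightest probe set, 2.98% passed as higher in KO. Summed signals of the 9 measured spermatogonial markers were 3322 to 3367 in KO and 2740 to 2782 in WT. The part of these cell types in the rises was not tested.

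The 250 bases before the starts of Smox and Sat2 are printed because these genes had the largest log2 fold changes of those that rose. They are from RefSeq on GRCm38.p6, Smox at chr2:131491612-131491861 (+ strand) and Sat2 at chr11:69621802-69622051 (+ strand). Capitals mark matches, on either strand, to the GC box GGGCGG, the CCAAT box CCAAT, the TATA box TATAAA or the E-box CACGTG, and no matches overlapped.
Smox: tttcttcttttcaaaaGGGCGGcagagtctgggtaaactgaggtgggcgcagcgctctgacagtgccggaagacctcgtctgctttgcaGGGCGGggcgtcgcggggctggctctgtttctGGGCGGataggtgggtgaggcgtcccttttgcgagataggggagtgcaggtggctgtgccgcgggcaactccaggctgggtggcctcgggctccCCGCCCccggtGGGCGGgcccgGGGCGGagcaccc
Sat2: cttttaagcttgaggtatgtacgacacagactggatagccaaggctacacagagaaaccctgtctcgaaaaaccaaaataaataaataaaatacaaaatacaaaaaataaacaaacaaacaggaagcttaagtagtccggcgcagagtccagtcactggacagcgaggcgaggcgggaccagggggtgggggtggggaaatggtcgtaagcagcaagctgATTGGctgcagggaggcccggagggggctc
Smox held 6 matches to the GC box and none to the other motifs, whereas Sat2, like Oaz1, held 1 match to the CCAAT box and none to the others. Of 32851 promoter windows of this length in the table, 32.7% held a GC box, 33.8% a CCAAT box, 12.4% a TATA box and 6.02% an E-box. A match describes letters only, and the 2 windows shared no motif of this search.

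**Figure D5:**
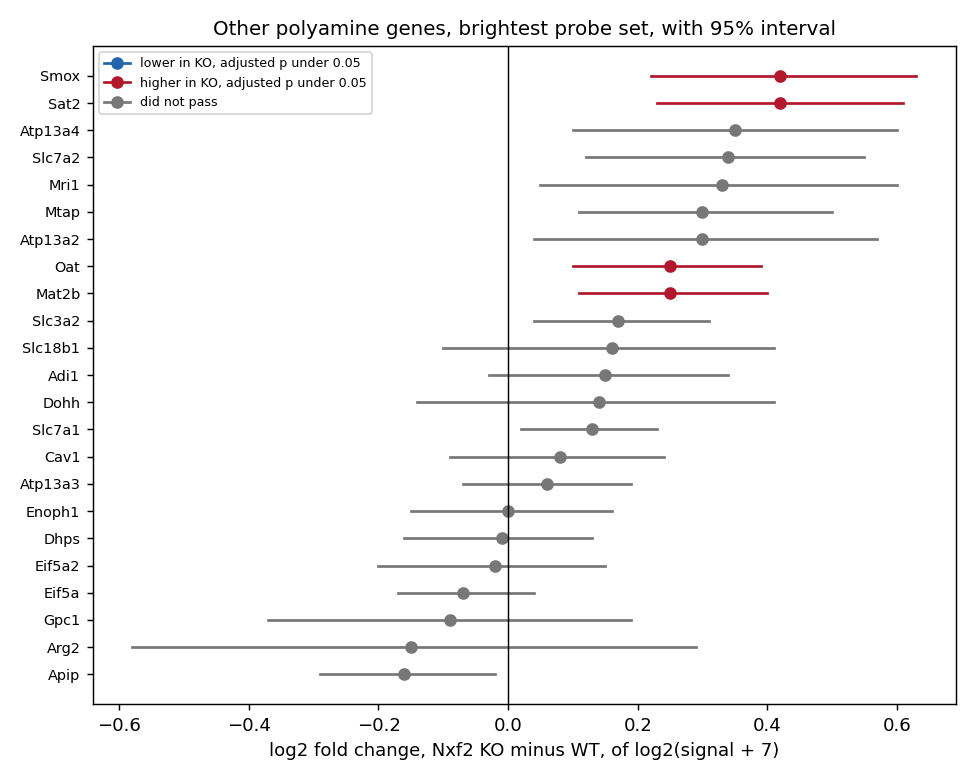
Log2 fold change, Nxf2 KO minus WT, with its 95% interval (horizontal axis) for the brightest probe set of the 23 tested genes of the wider polyamine pathway, ordered by size. Smox and Sat2 at 0.42 and Oat and Mat2b at 0.25 passed the test as higher in KO, and the lowest gene, Apip, was at -0.16.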

How the data were processed

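Values were the deposited MAS5 signal intensities of 6 whole-testis arrays, linear and not logged. MAS5 is named without a version per the submitters' processing notes, and the mean without the outer 2% at each end was 150.0 on every array. Detection calls were not used here, and the number of arrays (3 per group, by title) limits the precision.

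Leaving out 64 control probe sets, 45037 remained, of which 34945 have 1 symbol, 932 several and 9160 none. Symbols were updated by Entrez identifier from RefSeq (GRCm38.p6), where 34741 (99.4%) were found, and no coordinates were given to probe sets. RefSeq promoter windows were at hand for 6 of the 10 listed genes.

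KO and WT were compared in limma 3.58.1 (R 4.3.3; lmFit, then eBayes with a trend on signal level; two-sided and without covariates) on log2(signal + 7), 7 being the 25th percentile of all values, over the 27022 probe sets whose mean reached the 40th percentile, a signal of 20.5. Differences between 2 probe sets were tested by exact permutation over arrays. A gene was represented by its brightest probe set. Named were all members, Nxf2, the other polyamine genes that passed and 4 of lowest p among the rest, and the 5 genes most correlated with Oaz3. Members and lists were chosen with earlier results of these data known. Alternatives changed the normalization, pseudocount, dim filter, trend, array weights, replicate block and arrays included.

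On simulated arrays for KO against WT over 27022 probe sets, the fit recovered 33.9% of 59 changes of 0.5, 82.4% of 74 changes of 1 and 98.5% of 67 changes of 2 on the log2 scale, with 5 false calls. The simulated noise was normal and independent between probe sets and arrays. Effects shared by many probe sets of an array were not simulated, so these rates are not error rates of the real comparison.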

Additional observations from a re-analysis of the deposited data

Results flagged for a closer look

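Probe sets with 2 symbols were tested with all others but were not counted as members, and 3 of them, annotated to both Sms (spermine synthase) and its pseudogene Sms-ps, had every KO array above every WT array. Probe set 1421052_a_at had a mean of 425.9 ± 18.4 in KO and 394.7 ± 5.79 in WT (SD, n = 3 each). For 1434190_at the means were 242.9 ± 14.4 in KO and 197.5 ± 19.9 in WT, and for 1428699_at 53.7 ± 5.55 in KO and 43.1 ± 1.65 in WT. Their log2 fold changes were 0.11, 0.29 and 0.27 in that order, and none passed (limma adjusted p = 0.301, 0.0928 and 0.194). Over all tested probe sets, 19.1% were higher in KO without overlap. The probe set shared by Oaz1 and Oaz1-ps overlapped between KO, at 783.8 ± 47.1, and WT, at 784.9 ± 34.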

How the results depend on the processing

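The difference of Oaz3 against Oaz1 was -0.70 to -0.52 and that against Oaz2 -0.62 to -0.41 over their alternatives, and both kept their direction in each. With arrays left out in turn, member calls were 0 to 2, calls among the other polyamine genes 0 to 2 (4 with all arrays) and calls over all probe sets 159 to 1534 (2024 with all arrays). The lowest counts came without WT replicate 1, where 2 member probe sets and 8 other polyamine genes had an unadjusted p under 0.05 in limma. For members, the other polyamine genes and all probe sets, calls were 1, 2 and 1005 without the dim filter. They were 0, 1 and 743 without the intensity trend (3 members at an unadjusted p under 0.05 in limma) and 5, 10 and 7217 with array weights. Array weights added Oaz2 1426764_at (log2 fold change -0.16, limma adjusted p = 0.0325) and Odc1 1427364_a_at (-0.27, 0.0124) as lower in KO. They added Sat1 (0.21, limma adjusted p = 0.0334) as higher. Median centring left 2 calls among the other polyamine genes and split the calls over all probe sets into 1382 lower and 247 higher in KO, against 1414 lower and 610 higher as deposited. The split was 3446 lower and 3771 higher with array weights, and 2330 lower and 2173 higher with the replicate block. No other scaling or pseudocount moved a count by over 1.5 times.

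The series' design text speaks of 3 pairs of testes, but no label says that the replicate numbers mark them. Same-numbered deviations correlated at 0.0793, 0.457 and 0.266, and the other combinations at -0.334 to 0.112. The first value was below the 0.1 asked of every pair, and WT replicate 1 correlated best with KO replicate 3 (0.112), so the numbers were not treated as pairs, and whether they mark pairs is not settled. With the replicate block there were 3 member calls, Sat1 being added (limma adjusted p = 0.0492), 9 among the other polyamine genes and 4503 over all probe sets, and the exact p of the Oaz3 differences was 0.25, the smallest possible.

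Small fold changes of uncalled probe sets turned sign. Oaz2 1426763_at was -0.04 after median centring and -0.02 to 0.04 with single arrays left out, where it was -0.02 or -0.003 in 4 of the 6 cases. With array weights Oaz3 1429341_at was 0.04, Azin1 1450714_at 0.005, Azin1 1430984_at -0.01 and Azin2 1444585_at -0.23. Leaving out single arrays put Azin1 1422702_at at -0.04 to 0.01, Azin1 1450714_at at -0.05 to 0.05, Azin1 1430984_at at -0.07 to 0.25 and Azin2 1444585_at at -0.07 to 0.21. The cause was not tested. Dim probe sets, those of Azin2 above all, limit what can be read.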
